A study of Sus scrofa with 40 samples.

Results

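Chemokine ligands are small secreted proteins that draw leukocytes into a tissue, and 10 of their genes were followed across porcine kidneys that went through warm ischemia and cold storage: CCL2, CXCL2, IL8, CCL26, CXCL10, CCL5, CCL19, CCL21, CCL20 and CXCL12. Every array row that was not a control spot and carried one of these symbols, as its name or in brackets in its description, was taken as a member. This gave 14 of the 35955 array identifiers, measured by 18 probes. CCL26 entered through its RefSeq accession, because the array calls it LOC780409, a chemokine ligand 26-like protein.

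The kidneys came from Large White pigs of 3 months. Control kidneys (Ctl) were frozen as soon as they had been removed, and kidneys of the WI group were kept clamped for 60 min at 37 °C first. Kidneys of the cold-stored groups had the same warm ischemia, were then flushed with University of Wisconsin solution and kept at 4 °C, and were sampled after 6 h (WI+CS6h) and again after 24 h (WI+CS24h). Cortex (C) and corticomedullary junction (CMJ) were both sampled, which gives 8 groups of 5 arrays, 40 arrays in all, from 15 kidneys. Ctl and WI kidneys were not flushed and were other kidneys than the cold-stored ones, so cold storage, the flush and the set of kidneys cannot be told apart. No kidney was reperfused or transplanted in these groups, so the values describe the tissue before blood flow returns. The arrays of a group are numbered 1 to 5, and the labels do not say whether a number marks the same kidney in both tissues or at both storage times.

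Chemokines fall into families named after the spacing of their first cysteines, chiefly CC and CXC, and act through G protein-coupled receptors on leukocytes. Inflammatory ligands such as CCL2, CXCL2 and IL8 are switched on by NF-kB and AP-1 in injured tubular and endothelial cells, and CXCL10 is induced by interferons. Homeostatic ligands such as CCL19, CCL21 and CXCL12 guide leukocytes through lymphoid and other tissues without injury. In transplanted kidneys this family is known for the entry of neutrophils and monocytes soon after reperfusion and of T cells during rejection.

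Levels below are log2 normalised signals, which can be compared between arrays for one identifier but not between identifiers. Differences are log2 differences between group means with their standard error (SE), from limma fits over all identifiers of a tissue (n = 5 arrays per group). An identifier was called when its Benjamini-Hochberg adjusted p was under 0.05 and its difference was at least 0.5 in size. On each array, 57% to 69.9% of the spots stood well above background. Of the 14 ligand identifiers, 10 were well above background on all 40 arrays. The others were CCL5 ENSSSCT00000035687 on 39, CCL26 and IL8 X61151 on 37 each, and IL8 NM_213867 on 34.

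Over the 12 treatment comparisons, 6 identifiers of 5 genes were called at least once: CCL2, CXCL2 and both IL8 identifiers higher, CCL26 and CXCL10 lower. Of all identifiers, 3.94% were called higher, 4.89% lower and 8.67% either way in at least 1 of these comparisons, which is the background for this count and for each gene list. The other 8 identifiers, those of CCL5, CCL19, CCL20, CCL21 and CXCL12, were never called. Warm ischemia alone gave 0 calls among the 14 in cortex (1 at an unadjusted p under 0.05, limma), where 0.0946% of all identifiers were called, and 1 in CMJ (IL8 NM_213867), where 0.687% were. Against Ctl-C, 2 ligand identifiers were called in WI+CS6h-C (4.02% of all identifiers) and 2 in WI+CS24h-C (2.5%). Against WI-C, the counts were 3 (1.93%) and 2 (1.2%). In CMJ, 3 were called in WI+CS6h-CMJ against Ctl-CMJ (3.19%) and 4 in WI+CS24h-CMJ (3.65%), and against WI-CMJ 2 (2.78%) and 1 (2.85%). These comparisons share their control or WI arrays. With the slide as a block, 9 of the 20 calls were kept, 5 of CCL26, 3 of CCL2 and 1 of IL8 X61151, and the other 11 kept their sign. The median difference of the 14 identifiers lay between -0.29 and 0.21 over the 12 comparisons, and that of all identifiers between -0.01 and 0.05.

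**Figure D1:**
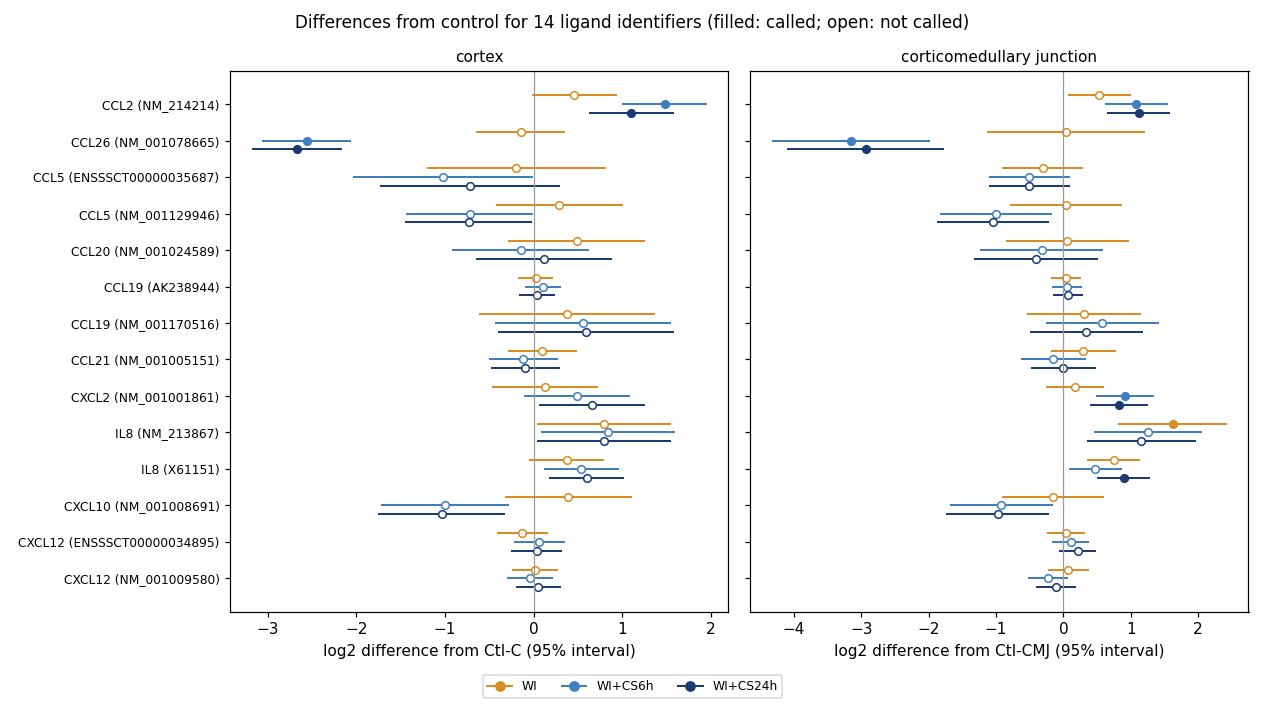
Log2 difference from the control group of the same tissue for the 14 ligand identifiers in WI, WI+CS6h and WI+CS24h, cortex in one panel and CMJ in the other. Points are limma estimates from 5 arrays per group, bars are 95% confidence intervals and filled points were called. CCL26 lies far to the left of 0 in all 4 cold-stored groups, CCL2 to the right, and most other intervals include 0.

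CCL2, the main attractant of monocytes through the receptor CCR2, rose in cold-stored tissue of both regions. Its 2 probes lie apart on the transcript, starting at bases 370 and 616, and their first 30 bases are shown because the CCL2 result rests on both:
CCL2 probe at base 370: cgagaatctgaagacaattcatttccttct
CCL2 probe at base 616: ggtccttgcaaggatggtgaacacaaaaac
In Ctl-C, CCL2 measured 7.45, 7.37, 7.52, 7.40 and 8.35 on arrays 1 to 5. In WI-C it measured 8.22, 8.15, 7.59, 8.37 and 8.05. In WI+CS6h-C the values were 8.82, 9.61, 9.29, 8.72 and 9.04, and in WI+CS24h-C they were 9.12, 8.62, 8.18, 8.69 and 8.98. Each WI+CS6h-C array lay above each Ctl-C and each WI-C array, while the WI+CS24h-C group overlapped the controls because of Ctl-C array 5, which stood at 8.35 above the other controls.

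The rise over Ctl-C was 1.48 in WI+CS6h-C (SE 0.22, limma adjusted p 0.000987, 2.79-fold) and 1.103 in WI+CS24h-C (SE 0.22, adjusted p 0.00932, 2.15-fold). Against WI-C the difference was 1.02 in WI+CS6h-C (adjusted p 0.0196), and without WI-C array 3 or without WI+CS6h-C array 3 it was 0.90 or 0.97 and no longer called. In WI+CS24h-C it was 0.64 against WI-C and was not called (adjusted p 0.2). WI-C itself lay 0.46 above Ctl-C (95% interval -0.0047 to 0.93, adjusted p 1), and between 6 h and 24 h of storage the difference was -0.38 (95% interval -0.84 to 0.09). Both probes gave 1.48 for WI+CS6h-C against Ctl-C. Within the 2 scan days the same difference was 1.28 and 1.61, with 2 and 3 arrays of each group.

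In CMJ, CCL2 measured 8.38, 7.53, 7.60, 7.72 and 9.01 in Ctl-CMJ, and 8.57, 8.73, 8.43, 8.73 and 8.46 in WI-CMJ. The cold-stored arrays measured 8.996, 9.15, 9.32, 9.16 and 9.04 after 6 h and 9.08, 9.31, 9.54, 8.93 and 8.99 after 24 h. All 10 lay above all WI-CMJ arrays, and Ctl-CMJ array 5 alone among the controls reached their level. The rise over Ctl-CMJ was 1.08 after 6 h (SE 0.22, limma adjusted p 0.00674) and 1.12 after 24 h (SE 0.22, adjusted p 0.00456). Against WI-CMJ the differences of 0.55 and 0.59 were not called (adjusted p 0.186 and 0.154). WI-CMJ lay 0.53 above Ctl-CMJ and was not called (adjusted p 0.3), but was called without Ctl-CMJ array 5, at 0.77. In bulk tissue, a change in the number of cells of a type and a change in the RNA per cell cannot be told apart, for CCL2 as for every ligand. Of 21 identifiers of leukocyte markers, 0 were called in any of the 12 comparisons, where 8.67% of all identifiers were (0 to 4 at an unadjusted p under 0.05, limma). Summed over these markers, the log2 level ran from 11.61 to 11.93 in the Ctl and WI groups of both tissues and from 11.70 to 12.43 in the cold-stored groups. The 3 identifiers of CD79A, a B cell gene, made up a median of 80.7% of this sum, so it mostly follows that gene. Without CD79A the sum ran from 9.07 to 9.97 in the Ctl and WI groups and from 9.15 to 11.51 in the cold-stored groups. Its high end there lay on the 4 arrays numbered 5 (11.09 to 11.51) and in S100A12, a granulocyte gene. Without both genes the cold-stored arrays ran from 9.07 to 9.56 and the Ctl and WI arrays from 9.01 to 9.96. 1 of the 2 MPO identifiers was well above background on 0 arrays. Among 9 identifiers of endothelial markers, the 2 of KDR rose in cold-stored CMJ over Ctl-CMJ, by 0.53 to 0.65, and the others were not called in any of the 12. At an unadjusted p under 0.05 (limma), 4 of the 9 exceeded Ctl-C after 6 h of storage, and 4 did so after 24 h, when 1 was lower, with medians of 0.23 and 0.18. Of all 35939 identifiers, 7708 and 5808 passed this level in either direction in these 2 comparisons. In CMJ, 2 were higher than Ctl-CMJ after 6 h and 4 after 24 h, with medians of 0.19 and 0.29, where 5752 and 6362 of all 35938 identifiers passed. The summed log2 level of 8 adipocyte identifiers was 9.44 to 9.59 in Ctl-C, and higher with no overlap in cortex after 6 h (9.67 to 10.09) and 24 h (9.69 to 10.11) of storage. Of these, 3 and 2 were higher at an unadjusted p under 0.05 (limma) and 0 were called. Bright identifiers weigh most in such a sum. In Ctl-CMJ, CIDEC ENSSSCT00000012648 measured 8.27 to 9.25, FABP4 7.26 to 7.68 and ADIPOQ EF601160 0.405 to 0.866. CIDEC thus weighs most in the sum there, and a higher sum need not mean more ADIPOQ. The part of leukocytes, endothelium and adipocytes in the CCL2 and CXCL2 values was not tested.

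**Figure D2:**
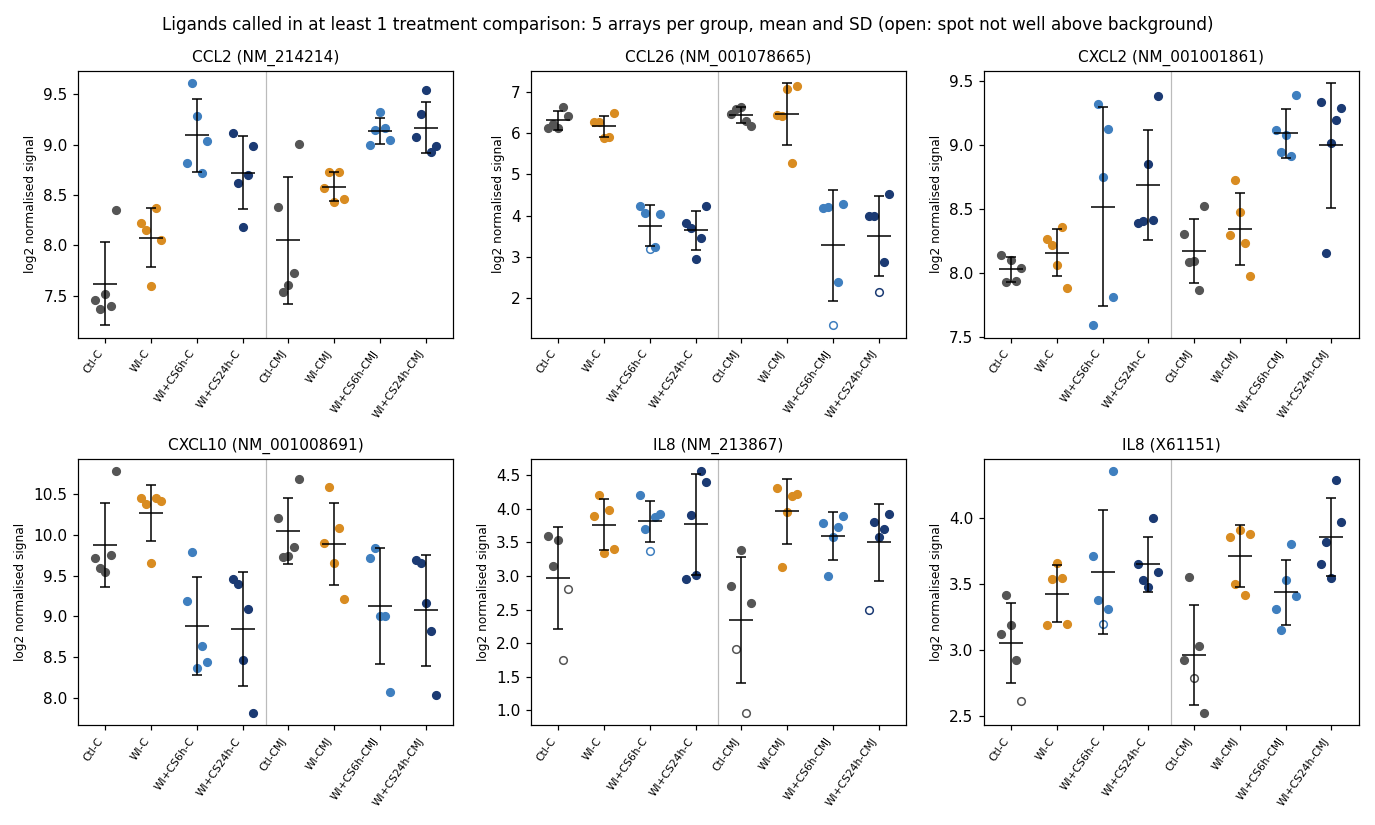
Log2 normalised signal of the 6 ligand identifiers called in at least 1 treatment comparison, 1 panel each, by group (cortex then CMJ). Points are arrays, open where the spot was not well above background, and bars give the mean ± SD of 5 arrays. CCL26 drops in all cold-stored groups with no overlap, and CCL2 stands highest in the cold-stored groups.

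CXCL2 and IL8 draw neutrophils, CXCL2 through CXCR2 and IL8 (CXCL8) through CXCR1 and CXCR2. CXCL2 rose in cold-stored CMJ and was not called in cortex. Its 2 probes start 11 bases apart on the transcript, and their first 30 bases are shown because they overlap, so that their agreement is not a second measurement. Capitals mark the shared bases:
CXCL2 probe at base 948: ttgtaaggcatAATGCCTTGTTTAGAGTTA
CXCL2 probe at base 959: AATGCCTTGTTTAGAGTTAATTACACTGTg
In Ctl-CMJ, CXCL2 measured 8.30, 8.08, 8.09, 7.86 and 8.52, and in WI-CMJ 8.30, 8.73, 8.47, 8.23 and 7.97. In WI+CS6h-CMJ it measured 9.12, 8.95, 9.08, 8.91 and 9.39, above every Ctl-CMJ and WI-CMJ array. In WI+CS24h-CMJ it measured 9.34, 8.15, 9.01, 9.20 and 9.29, where array 2 stayed among the controls.

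The rise of CXCL2 over Ctl-CMJ was 0.92 after 6 h (SE 0.20, limma adjusted p 0.011) and 0.83 after 24 h (SE 0.20, adjusted p 0.0191). The call after 24 h was lost without Ctl-CMJ array 4 (0.75) or without WI+CS24h-CMJ array 1 (0.74). Over WI-CMJ the rise was 0.75 after 6 h (adjusted p 0.0405), a call lost without any one of the 5 WI+CS6h-CMJ arrays or of WI-CMJ arrays 1, 3, 4 and 5 (0.66 to 0.79). After 24 h it was 0.66 and not called (adjusted p 0.0726), but was called without WI+CS24h-CMJ array 2, at 0.87.

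In cortex CXCL2 measured 7.93 to 8.14 in Ctl-C and 7.88 to 8.36 in WI-C. The WI+CS6h-C arrays split, with arrays 1 and 5 at 7.59 and 7.81, below every control, and arrays 2, 3 and 4 at 9.32, 8.75 and 9.12, above every control. All WI+CS24h-C arrays (8.39 to 9.38) lay above all Ctl-C arrays. The differences from Ctl-C were 0.49 after 6 h and 0.66 after 24 h, neither called (limma adjusted p 0.308 and 0.245). The CMJ and cortex effects of storage on CXCL2 were not shown to differ: among the 14 ligand identifiers 0 interactions of tissue and treatment were called for WI, WI+CS6h or WI+CS24h (0 at an unadjusted p under 0.05 in each, limma), where 0% of all identifiers were.

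IL8 was dim, and each of its identifiers was called once, in CMJ. The identifiers carry different probes, whose first 30 bases are shown because their calls differ:
IL8 NM_213867: tgactgcaagctttgttatgcagtgctgta
IL8 X61151: aacaagcaaaaacccattctccgtggctcc
For IL8 NM_213867, Ctl-CMJ measured 2.85, 1.91, 3.39, 0.96 and 2.61, with arrays 2 and 4 not well above background, and WI-CMJ measured 4.31, 3.13, 3.95, 4.19 and 4.22. All WI-CMJ arrays but array 2 lay above all controls. The rise was 1.62 (SE 0.38, limma adjusted p 0.0497, 3.07-fold). The call was lost without Ctl-CMJ array 1, 2, 4 or 5 or without WI-CMJ array 1, 3, 4 or 5 (1.27 to 1.75), and the difference was 0.44 on the deposited matrix and 0.11 with the normexp background correction. Within the scan days it was 0.88 and 2.18.

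Markers of other cell types were read in the same comparison, where 4410 of all 35938 identifiers had an unadjusted p under 0.05 in either direction (limma). At an unadjusted p under 0.05 (limma), 4 of 9 endothelial identifiers (median 0.26) and 2 of 7 fibroblast and mural cell identifiers (median 0.31) were higher in WI-CMJ than in Ctl-CMJ, and 0 were lower or called. Adipocyte markers had the largest median of these 3 lists. Of their 8 identifiers 0 were called in WI-CMJ against Ctl-CMJ, but 5 were higher at an unadjusted p under 0.05 (limma). The median difference of the 8 was 0.65 where that of all identifiers was -0.01. The 5 were those of ADIPOQ, CIDEC NM_001112689 and PLIN1, and PLIN1 was not well above background on any array of the 2 groups. LEP went the other way, at -0.14. ADIPOQ EF601160, the fat cell hormone adiponectin, measured 6.23, 0.50, 7.05, 0.48 and 7.53 in WI-CMJ, and was well above background on arrays 1, 3 and 5 there and on 0 of the 5 Ctl-CMJ arrays. On arrays 2 and 4 ADIPOQ EF601160 was not well above background. There IL8 NM_213867 was the lowest of the group on array 2 and within the range of arrays 1, 3 and 5 on array 4. The summed log2 level of the 8 identifiers, in which CIDEC weighs most in Ctl-CMJ, was 9.07 to 9.80 in Ctl-CMJ and 9.38 to 10.48 in WI-CMJ. Without WI-CMJ arrays 1, 3 and 5, which leaves 2 arrays in that group, the rise of IL8 NM_213867 was 1.32 and not called (adjusted p 0.515). CXCL2 in WI+CS6h-CMJ was then 0.61 above WI-CMJ and not called (adjusted p 0.427). The part of these cell types in the ligand values was not tested.

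After storage IL8 NM_213867 measured 3.00 to 3.89 in WI+CS6h-CMJ and 2.50 to 3.93 in WI+CS24h-CMJ. Its differences from Ctl-CMJ were 1.25 and 1.16 and were not called (limma adjusted p 0.0697 and 0.0894). IL8 X61151 measured 2.92, 3.55, 2.78, 3.03 and 2.52 in Ctl-CMJ and 3.65, 3.82, 3.54, 4.29 and 3.97 in WI+CS24h-CMJ, where array 3 alone fell below the highest control. This rise of 0.89 was called (SE 0.18, adjusted p 0.00624, 1.86-fold), and was 0.20 on the deposited matrix and 0.07 with the normexp background correction, called in neither. The normexp offset shrinks this difference too. IL8 X61151 differed by 0.75 in WI-CMJ and by 0.48 in WI+CS6h-CMJ from Ctl-CMJ, neither called (adjusted p 0.0589 and 0.173). In cortex IL8 NM_213867 lay 0.79 to 0.84 above Ctl-C and IL8 X61151 0.37 to 0.60 above it in the 3 treated groups, and none was called.

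CCL26, eotaxin-3, attracts eosinophils and basophils through CCR3. It fell in all 4 cold-stored groups and was the only one of the 14 identifiers called in all 8 comparisons of a cold-stored group with Ctl or WI. It has a single probe, whose first 30 bases are shown because the result rests on it alone and because the array names the gene only by its locus:
CCL26: tttctttactgaaagcccagaaacaactgt
In Ctl-C it measured 6.14, 6.22, 6.13, 6.65 and 6.43, and in WI-C 6.27, 6.27, 5.89, 5.92 and 6.50. In WI+CS6h-C it measured 4.23, 4.07, 3.18, 3.25 and 4.04, and in WI+CS24h-C 3.83, 3.71, 2.96, 3.46 and 4.24. The highest cold-stored array, at 4.24, was thus well below the lowest Ctl-C or WI-C array, at 5.89.

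The fall from Ctl-C was -2.56 after 6 h (SE 0.24, limma adjusted p 7.37e-06, 5.89-fold lower) and -2.67 after 24 h (SE 0.24, adjusted p 5.44e-06, 6.37-fold lower). Against WI-C it was -2.41 and -2.53 (adjusted p 4.74e-05 and 2.95e-05). In CMJ, CCL26 measured 6.19 to 6.65 in Ctl-CMJ and 6.44, 6.41, 7.07, 5.29 and 7.16 in WI-CMJ. It measured 4.20, 4.21, 1.34, 2.39 and 4.28 in WI+CS6h-CMJ and 3.99, 3.99, 2.15, 2.87 and 4.51 in WI+CS24h-CMJ. Again no cold-stored array reached a Ctl-CMJ or WI-CMJ array, and arrays 3 and 4 of each cold-stored group were the lowest. The fall from Ctl-CMJ was -3.16 (SE 0.55, adjusted p 0.00249) and -2.94 (SE 0.55, adjusted p 0.00382), and from WI-CMJ -3.19 and -2.97 (adjusted p 0.00283 and 0.00454).

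CCL26 did not change detectably with warm ischemia alone, at -0.15 in cortex (adjusted p 1) and 0.04 in CMJ (adjusted p 0.992), nor from 6 h to 24 h, at -0.11 and 0.22. All 8 differences of the cold-stored groups kept their sign within each scan day, and all 8 stayed called without any one array. Without WI-CMJ arrays 1, 3 and 5 together, those from WI-CMJ were -2.57 and -2.35 and not called (limma adjusted p 0.16 and 0.194). Their size depended on the background: on the deposited matrix, which has none subtracted, they ran from -1.33 to -1.64, and with the normexp correction from -0.53 to -0.68. The spot was not well above background on WI+CS6h-C array 3, WI+CS6h-CMJ array 3 and WI+CS24h-CMJ array 3. CCR3, the receptor of CCL26, was well above background on 0 or 1 arrays of each group.

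CXCL10 is induced by interferon-gamma and attracts activated T cells and natural killer cells through CXCR3. It was lower in cold-stored cortex than in WI-C. The first 30 bases of its 2 probes are shown because both carry the fall:
CXCL10 probe at base 671: gatcattccactttgggacttaatcgaagt
CXCL10 probe at base 1045: ctgagtgggtgctcttcaaaataaaactaa
In Ctl-C, CXCL10 measured 9.71, 9.60, 9.55, 9.75 and 10.79, and in WI-C 10.46, 10.38, 9.66, 10.45 and 10.41. In WI+CS6h-C it measured 9.19, 9.79, 8.36, 8.64 and 8.44, and in WI+CS24h-C 9.46, 9.39, 8.46, 9.09 and 7.81. The WI+CS24h-C arrays lay below all Ctl-C and WI-C arrays, and in WI+CS6h-C array 2 alone overlapped them.

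Against WI-C, CXCL10 was lower by -1.39 after 6 h (SE 0.34, limma adjusted p 0.0354, 2.62-fold) and -1.43 after 24 h (SE 0.34, adjusted p 0.0399, 2.70-fold). The probes gave -1.40 and -1.38 after 6 h, and -1.42 and -1.44 after 24 h. Both calls were lost without WI-C array 1, 2, 4 or 5. The call at 6 h was lost too without WI+CS6h-C array 1, 3, 4 or 5, and that at 24 h without WI+CS24h-C array 3, 4 or 5, with differences of -1.26 to -1.47 at 6 h and -1.17 to -1.49 at 24 h. Within the scan days the differences were -1.28 and -1.53 after 6 h, and -0.88 and -2.26 after 24 h. Against Ctl-C the differences of -0.997 and -1.04 were not called (adjusted p 0.0969 and 0.115).

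In CMJ, CXCL10 measured 9.73 to 10.68 in Ctl-CMJ and 9.22 to 10.59 in WI-CMJ. It measured 9.71, 9.84, 9.002, 9.01 and 8.06 after 6 h of storage and 9.69, 9.65, 9.17, 8.82 and 8.03 after 24 h. The differences from Ctl-CMJ were -0.92 and -0.97 and those from WI-CMJ -0.76 and -0.82, none called (limma adjusted p 0.139 to 0.284). Array 5 was the highest of Ctl-C and of Ctl-CMJ for CXCL10, as it was for CCL2. In 3 of the 4 cold-stored groups, which are other kidneys, array 5 was the lowest for CXCL10.

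CCL5 (RANTES) draws T cells and monocytes, and showed differences of a similar size in CXCL10's direction with no call. CCL5 NM_001129946 measured 8.55, 8.31, 8.64, 7.80 and 8.55 in Ctl-C and 8.23, 9.46, 9.10, 8.33 and 8.20 in WI-C. It measured 8.25, 8.01, 7.65, 7.57 and 6.80 in WI+CS6h-C and 8.17, 8.00, 7.54, 8.01 and 6.49 in WI+CS24h-C. Array 5 was the lowest of both cold-stored groups. The differences from WI measured -1.01 and -1.02 for cortex and -1.04 and -1.09 for CMJ (limma adjusted p 0.134 to 0.169). Without the cold-stored arrays numbered 5 they were -0.80, -0.73, -0.71 and -0.73, still not called (adjusted p 0.0886 to 0.196). The other identifier, CCL5 ENSSSCT00000035687, lay -0.50 to -1.02 from the controls after storage.

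CCL19 and CCL21 bind CCR7 and bring naive T cells and dendritic cells together in lymphoid tissue. CCL19 NM_001170516 spread widely in cold-stored kidneys while its group means moved little. It measured 7.65 to 8.35 in Ctl-C and 8.09 to 8.61 in WI-C, with an SD of 0.262 and 0.215 (n = 5). In WI+CS6h-C it measured 8.86, 9.16, 7.26, 7.55 and 9.55 (SD 1.01) and in WI+CS24h-C 8.95, 8.87, 6.97, 7.84 and 9.91 (SD 1.13). Numbers 1, 2 and 5 were above every Ctl-C array in both groups, and number 3 was below every one. Differences from Ctl were 0.34 to 0.59 and not called. CCL19 AK238944, whose probe lies elsewhere, stayed between 6.35 and 6.91 on all 40 arrays.

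CCL21 measured 7.41 to 8.17 in the Ctl and WI cortex arrays and 7.48 to 8.47 in those of CMJ. Its cold-stored arrays lay between 6.69 and 8.10, and array 5 was the lowest in all 4 groups, at 7.04, 6.76, 7.09 and 6.69. CCL21 differed from Ctl or WI by at most 0.45 and was not called.

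CCL20, which attracts dendritic cells and lymphocytes through CCR6, also spread in storage. In Ctl-CMJ it measured 5.53 to 6.16 and in WI-CMJ 5.41 to 6.53, against 5.37, 5.20, 6.23, 6.53 and 4.04 in WI+CS6h-CMJ and 5.34, 5.04, 6.19, 6.32 and 4.08 in WI+CS24h-CMJ. Array 4 was the highest and array 5 the lowest of both groups. No treatment difference of CCL20 passed 0.63 in size, and none was called. CXCL12, the ligand of CXCR4 that holds leukocytes and progenitor cells in place, varied little: its identifiers spanned 0.77 (ENSSSCT00000034895) and 0.91 (NM_001009580) over all 40 arrays, and no treatment difference passed 0.30 in size.

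Storage time made no detectable difference in the ligands. Between 24 h and 6 h, 0 of the 14 identifiers were called in cortex and 0 in CMJ, where 0% and 0.00278% of all identifiers were called. At an unadjusted p under 0.05 (limma) there were 0 in cortex and 1 in CMJ, where 1119 of 35939 and 1238 of 35938 identifiers passed. For CXCL10 the difference was -0.04 in cortex (95% interval -0.75 to 0.67) and -0.05 in CMJ (-0.80 to 0.69). In CMJ arrays of the same number deviated together at the 2 times, and with the replicate number as a block in a fit of these 2 groups the interval for CXCL10 was -0.23 to 0.12 and that for CCL2 -0.17 to 0.24. With this block 0 of the 14 identifiers were called in CMJ (1 at an unadjusted p under 0.05, limma). It was IL8 X61151, 0.42 higher at 24 h (95% interval 0.15 to 0.68, adjusted p 0.89).

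Between the tissues 0 ligand identifiers were called in Ctl, WI, WI+CS6h or WI+CS24h, where 0.312%, 0.671%, 0.0807% and 0% of all identifiers were called. At an unadjusted p under 0.05 (limma) there were 1, 2, 3 and 0 ligand identifiers, where 2190, 2579, 3440 and 1439 of all 35934 passed. CCL20 was nearest in the controls. It measured 4.46 to 4.86 in Ctl-C against 5.53 to 6.16 in Ctl-CMJ, with no overlap, a difference of 1.08 that missed the call (unadjusted p 0.0114, adjusted p 0.476). CCL2 was higher in WI-CMJ (8.43 to 8.73) than in WI-C (7.59 to 8.37), with no overlap, by 0.50 (adjusted p 0.567).

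In the cold-stored groups, the ligands divided by how far arrays of one number went together. The share of the spread within the 4 cold-stored groups that lay between the 5 numbers (20 arrays) had a median of 29.9% over all identifiers. It was 94.7% for CCL19 NM_001170516, 92.9% for CCL5 NM_001129946, 88.9% for CXCL10 and 85.7% for CCL20. It was 80.5% for both CCL26 and CCL21, but 13.9% for CCL2 and 9.08% for CXCL2. CXCL12 had 74.1% and 70%, the IL8 identifiers 35.9% and 37.9%. CCL2 and CXCL2, the ligands called higher in CMJ at both storage times, were thus the only ones of the 14 identifiers below the median of all identifiers. These arrays share kidneys over time, so the shares describe the spread and carry no test. In cortex, arrays of one number did not pair between the 2 storage times (correlation of deviations -0.42 to 0.62). A number therefore need not mark the same kidney in all 4 groups.

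**Figure D3:**
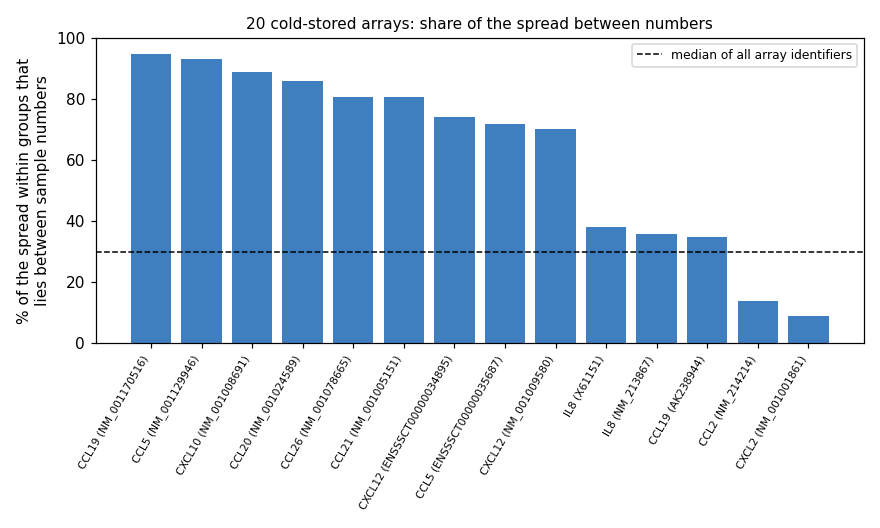
Share of the within-group spread of the 20 cold-stored arrays that lies between the numbers 1 to 5, in percent, for the 14 ligand identifiers (bars), with the median over all identifiers as a dashed line. CCL19 NM_001170516 reaches 94.7% and CXCL2 9.08%, against a median of 29.9%.

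Number 5 stood apart. Its mean over the 4 cold-stored groups was 6.44 for CCL5 NM_001129946, where numbers 1 to 4 had 7.70 to 8.15. CXCL10 averaged 8.09 at number 5 and 8.75 to 9.67 at the others, CCL20 3.95 against 4.75 to 6.01, and CCL21 6.89 against 7.54 to 7.79. CCL19 NM_001170516 went the other way, at 9.84 against 7.54 to 9.24. CCL2, at 9.01, was within the range of the others (8.88 to 9.17). Cell type markers differed at this number too. The summed log2 level of the 5 proximal tubule and glomerulus identifiers was 14.83 to 14.99 at number 5 and 15.09 to 15.87 at numbers 1 to 4, with no overlap. That of the 9 endothelial identifiers was 12.13 to 12.33 at number 5 and 12.26 to 12.84 at the others. The summed level of leukocyte markers was 12.26 to 12.43 at number 5 over the 4 groups and 11.70 to 11.96 at numbers 1 to 4. The difference in this sum lay in S100A12: without it the sum was 11.63 to 11.84 at number 5 and 11.68 to 11.93 at the others. Of the 21 leukocyte identifiers, 7 were lowest at number 5 in all 4 groups, those of the T cell genes CD2, CD3D (2), CD3E and CD8A and of the integrin ITGB2 (2), and 3 were highest, those of the monocyte and macrophage genes CD14 and CD163 and of the granulocyte gene S100A12. CD3E averaged 4.28 at number 5 and 5.30 to 5.73 at the others, and S100A12 10.8 against 2.55 to 5.35. The part of these cells in the ligand values was not tested.

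Without the 4 cold-stored arrays numbered 5, 17 of the 19 cold-stored calls were kept. All calls of CCL2 and CCL26 were among them. CXCL10 was then -1.28 from WI-C after 6 h (limma adjusted p 0.0423, called) and -1.17 after 24 h (adjusted p 0.0701, not called). CXCL2 in WI+CS6h-CMJ was 0.67 above WI-CMJ and not called (adjusted p 0.0795). IL8 X61151 was called in addition in WI+CS24h-C, 0.61 above Ctl-C (adjusted p 0.0466).

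**Figure D4:**
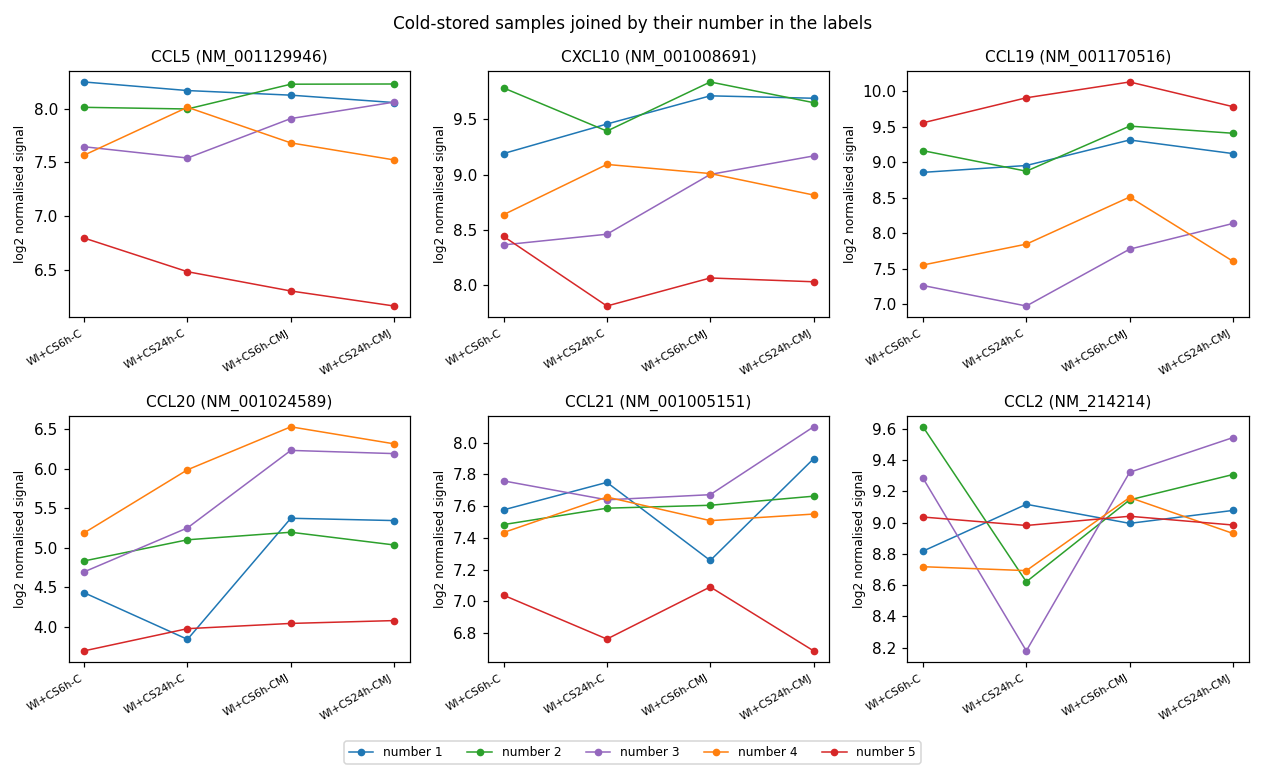
Log2 normalised signal of CCL5 NM_001129946, CXCL10, CCL19 NM_001170516, CCL20, CCL21 and CCL2 on the 20 cold-stored arrays, by group, with lines joining arrays of the same number. The line of number 5 runs below the others for CCL5 and CCL21, above them for CCL19, and among them for CCL2.

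The receptors were tested in the same fits. Of 29 receptor genes listed, 20 were found on the arrays, with 21 identifiers, and 19 of these were never called. Of all identifiers, 8.67% were called at least once. ACKR1, a decoy receptor on venules and erythrocytes that takes up CCL2, CCL5 and IL8, rose in WI-CMJ by 1.15 over Ctl-CMJ (limma adjusted p 0.0343) and differed by -1.02 between WI+CS6h-CMJ and WI-CMJ (adjusted p 0.0239). HBB, the only erythrocyte marker found, measured 0.85 to 3.00 in Ctl-CMJ and 2.19 to 4.62 in WI-CMJ, and its part in the ACKR1 values was not tested. ACKR1 measured 5.39, 4.88, 5.70, 4.77 and 6.46 in WI-CMJ, highest on the 3 arrays with ADIPOQ, and without these it was 0.53 above Ctl-CMJ and -0.41 in WI+CS6h-CMJ against WI-CMJ, neither called (adjusted p 0.406 and 0.46). CCR1, a receptor of CCL5, was -0.53 from Ctl-CMJ in WI+CS6h-CMJ (adjusted p 0.0328). CCR2, CXCR1, CXCR3, CCR7 and both CXCR4 identifiers, receptors of CCL2, IL8, CXCL10, CCL19 and CXCL12, were not called. CCR6, the receptor of CCL20, was well above background on 0 or 1 arrays of a group.

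Of 34 other chemokine ligands listed, 20 were found, with 23 identifiers. Of these 21 were never called, 2 rose in 1 comparison each and 0 fell. They were CCL28, a mucosal ligand, 1.06 higher in WI+CS24h-C than in Ctl-C (limma adjusted p 0.0398), and CCL3L1, a ligand of the CC family, 1.03 higher in WI-CMJ than in Ctl-CMJ (adjusted p 0.0156), both named after their values were seen. Without WI-CMJ arrays 1, 3 and 5 the difference of CCL3L1 was 1.36 and called (adjusted p 0.0258).

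Among NF-kB and cytokine genes, 20 of 25 listed genes were found, with 24 identifiers, of which 20 were never called, 2 rose and 2 fell. IL1B, a cytokine that induces CCL2 and IL8, rose by 2.02 to 2.33 over Ctl in all 6 treated groups, warm ischemia alone included (limma adjusted p 0.000743 to 0.0199). Without WI-CMJ arrays 1, 3 and 5 the rise in WI-CMJ was 1.83 and not called (adjusted p 0.339). It measured 2.38 to 3.40 in Ctl-C and 4.46 to 5.56 in WI-C, with no overlap. HBB was also higher in WI-C, at 0.30 to 2.85 in Ctl-C and 3.56 to 4.61 in WI-C, with no overlap (a difference of 2.59, not called). After storage HBB differed from Ctl by 0.58 and 1.32 in cortex and by -0.03 and 0.66 in CMJ, at 6 h and 24 h. In WI-CMJ it differed by 1.59, and none of these was called. The part of HBB in the IL1B values was not tested. With the normexp background correction, whose offset shrinks differences of dim spots, 0 of the 24 identifiers were called in any of the 12 comparisons. IL6 fell in cold-stored CMJ, by -2.24 and -2.14 from Ctl-CMJ and by -2.01 and -1.92 from WI-CMJ (adjusted p 5.03e-05 to 0.000364). It was well above background on all Ctl-CMJ and WI-CMJ arrays, but on 3 of 5 arrays after 6 h and 4 of 5 after 24 h, so the size of the fall rests in part on spots near background. NFKB2 differed by -0.52 between WI+CS6h-C and WI-C (adjusted p 0.0408). SELE, which holds leukocytes on the vessel wall, was called higher in WI+CS6h-C than in Ctl-C (adjusted p 0.0456) and was named after its values were seen. It was well above background on 0 of 5 Ctl-C and 3 of 5 WI+CS6h-C arrays, and no size is given.

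All 19 interferon-stimulated genes listed beside CXCL10 were found, with 25 identifiers. Of these 0 rose, 7 fell in at least 1 comparison and 18 were never called, where 4.89% of all identifiers fell in at least 1. The 7 identifiers belong to 5 genes, 3 of them to MX2. The 3 identifiers of MX2, an antiviral GTPase, fell by -1.61 to -2.08 in WI+CS6h-C against Ctl-C (limma adjusted p 0.00261 to 0.00348). The median difference of the list from WI-C was -0.37 after 6 h and -0.50 after 24 h of storage, where that of all identifiers was 0.03 and -0.01. With warm ischemia alone the list's median was 0.16 in cortex and -0.11 in CMJ, and 0 of the 25 were called (1 and 3 at an unadjusted p under 0.05, limma).

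Genes whose signal followed the called ligands over the 40 arrays were ranked among 6696 identifiers with a symbol. For CCL2 the highest Pearson r belonged to FOS (0.86), a subunit of AP-1, followed by FKBP14 (0.86) and LPIN1 (0.83). For CCL26 they were CDO1 (0.95), which oxidises cysteine, PEX6 (0.91) and ENTPD1 (0.90). For CXCL10 they were the interferon-induced genes GBP1 (0.95), CXCL9 (0.91) and PSMB9 (0.88). For CXCL2 they were DDIT3 (0.72), MCOLN3 (0.71) and TRA2A (0.69), and for IL8 NM_213867 they were IL1B (0.68), TUSC2 (0.66) and PPP6C (0.66). IL8 X61151 was closest to DUSP7 (0.68), HMGA1 (0.65) and FOS (0.63). The arrays share their groups, so an r over them describes the common change between groups as well as that within them.

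The partners were not called in the same comparisons throughout. FOS ENSSSCT00000002650 was called with warm ischemia alone, 1.27 above Ctl-C in WI-C (limma adjusted p 0.0223), where CCL2 was not. CDO1 fell with CCL26 in storage, by -2.42 and -2.64 from Ctl-C and by -3.61 and -3.34 from Ctl-CMJ. GBP1 lay -1.05 and -1.13 from WI-C after storage and was not called (adjusted p 0.0579 and 0.053), where CXCL10 was.

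**Figure D5:**
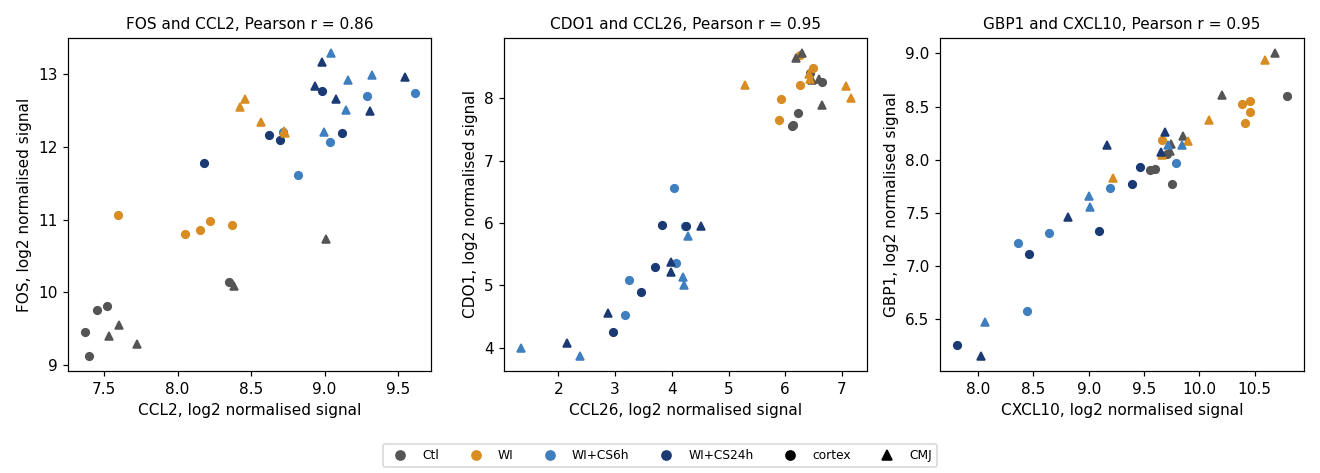
Log2 normalised signal of the most similar gene against that of the ligand on all 40 arrays for CCL2 (FOS, r 0.86), CCL26 (CDO1, r 0.95) and CXCL10 (GBP1, r 0.95). Circles are cortex and triangles CMJ, coloured by treatment. Cold-stored arrays form the low end for CCL26 with CDO1, apart from the rest.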

How the data were processed

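Total RNA of 40 tissue samples was labelled with Cy3 and hybridised to single-color Agilent 44k porcine arrays. The authors deposited each array's scanner output from Agilent Feature Extraction 11.5.1.1, in which the processed intensity is background-subtracted and not normalised between arrays. The deposited matrix of log2 values, for which the labels name limma and R 2.15.2, holds median spot signals without background subtraction, quantile normalised over all 40 arrays. It was used as an alternative.

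The processed intensity of the 43803 spots that were not controls was taken to log2, outlier spots were set to missing, all 40 arrays were quantile normalised and spots of one identifier were averaged. Subtracting the background widens differences of dim spots, which bears on CCL26 and IL8. In each tissue, limma 3.58.1 (R 4.3.3) was fitted to 20 arrays with 1 term per group, and tissue comparisons and interactions were taken from a fit of all 40. Adjustment followed Benjamini-Hochberg across the identifiers of a comparison, 35939 in cortex, 35938 in CMJ and 35934 for both. Calls needed an adjusted p under 0.05 and a log2 difference of at least 0.5. The labels name independent kidneys within a group. The scripts were tested on simulated data. Precision is limited by 5 arrays per group.

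Named genes are all identifiers of the 10 ligands, up to 3 called identifiers per list and direction with no overlap of arrays, and the 3 genes most like each called ligand among those well above background on at least 20 arrays. Any other gene was chosen after its values were seen. Members and lists were chosen with earlier results of these data known. Lists were other chemokine ligands, receptors, NF-kB and cytokine genes, interferon-stimulated genes, and markers of leukocytes, erythrocytes, endothelium, lymphatic endothelium, fibroblasts and mural cells, adipocytes, proximal tubule and glomerulus, and loop and collecting duct. Alternatives were another scaling (the 75th percentile, or quantiles within a tissue or group), the normexp background (offset 50), the deposited matrix, a filter on dim spots, the brightest probe, blocks for replicate number, slide and scan day, fits of 2 groups alone and leaving out each array. Leaving out the cold-stored arrays numbered 5, or WI-CMJ arrays 1, 3 and 5, was added after the data were seen. Figures were drawn in Python 3.11.15 with matplotlib 3.10.9.

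Deviations of same-numbered arrays correlated positively at each number between WI+CS24h-CMJ and WI+CS6h-CMJ (0.59 to 0.84). They also did so between the tissues in WI (0.11 to 0.42), WI+CS6h (0.16 to 0.63) and WI+CS24h (0.22 to 0.66). The array of the same number was the best match for 4 of 5 in the CMJ pair. Between the tissues it was so for 4 of 5 in WI, 3 in WI+CS6h and 2 in WI+CS24h. By the labels, both storage times used the same kidneys, but no number is tied to a kidney, and the pairing is therefore read from the data. Other groups compared did not pair, among them WI+CS24h-C and WI+CS6h-C (-0.42 to 0.62), which by the labels are the same kidneys. Some listed genes are not reported by name here.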

Additional observations from a re-analysis of the deposited data

Results flagged for a closer look

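In 8 of the 112 groups of 5 arrays tested, 1 array stood far from the others by Dixon's test, where chance gives about 1 in 20, or 5.6. CCL2 was high on Ctl-C array 5 (8.35, next 7.52), and CXCL10 was high on the same array (10.79, next 9.75). On WI-C array 3, CXCL10 was low (9.66, next 10.38). CCL5 ENSSSCT00000035687 was low on WI+CS6h-C array 5 (1.79, next 4.33), where the spot was not well above background. CCL5 NM_001129946 was low on WI+CS6h-CMJ array 5 (6.31, next 7.68) and CCL21 on WI+CS24h-C array 5 (6.76, next 7.59). CXCL2 was low on WI+CS24h-CMJ array 2 (8.15, next 9.01), and IL8 NM_213867 on WI+CS24h-CMJ array 1 (2.50, next 3.58). Of these 8 values, 5 were on arrays numbered 5, but Ctl-C array 5 is from another kidney than the cold-stored arrays of that number.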

How the results depend on the processing

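None of the 20 called ligand differences, nor of 38 uncalled ones with an unadjusted p under 0.05, changed sign under the alternatives run. The signs of the other differences were not followed. Of the 20 calls, the filter on dim spots kept 20, the 75th percentile scaling, quantiles within a tissue, quantiles within a group and the brightest probe 19 each, normexp, the deposited matrix, the replicate block and the scan day block 18 each, fits of 2 groups alone 12 and the slide block 9. Leaving out single arrays kept 164 of 200 values. Of the 38 uncalled differences, quantiles within a group brought 4 past the threshold, the dim filter 3, and the scan day block 1. Leaving out the cold-stored arrays of number 5 did so for 1 of 29 differences, and fits of 2 groups alone for 1 of 32. Leaving out single arrays did so for 7 of 380 values, of 6 differences. IL8 X61151 in WI-CMJ against Ctl-CMJ was called under the dim filter (0.75) and the scan day block (0.81).

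The following counts of called identifiers moved by more than 1.5 times. For WI-CMJ against Ctl-CMJ (1 call), the count was 0 under the 75th percentile scaling, quantiles within a tissue or a group, normexp, the deposited matrix, the brightest probe, the replicate block, the slide block and 2 groups alone, and 2 under the dim filter. Under the slide block it was 1 for WI+CS24h-C against Ctl-C and against WI-C, 2 for WI+CS24h-CMJ against Ctl-CMJ, and 0 for WI+CS6h-C against WI-C and WI+CS6h-CMJ against WI-CMJ. With 2 groups alone it was 1 for WI+CS24h-C against WI-C, WI+CS6h-C against WI-C and WI+CS24h-CMJ against Ctl-CMJ. For WI+CS24h-CMJ against WI-CMJ it was 3 under quantiles within a group and 2 under the dim filter. With the replicate number as a block it was 1 for WI+CS6h-CMJ against WI-CMJ, whose kidneys are not paired, and no ligand was gained or lost in the paired comparisons of tissues or storage times. Without the cold-stored arrays numbered 5 it was 1 for WI+CS24h-C against WI-C and for WI+CS6h-CMJ against WI-CMJ. Without WI-CMJ arrays 1, 3 and 5 it was 0 for WI-CMJ against Ctl-CMJ and for both cold-stored CMJ groups against WI-CMJ, and all 4 calls in these comparisons were lost.

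Without single arrays the counts ran from 2 to 3 for WI+CS6h-C against Ctl-C, 2 to 2 for WI+CS24h-C against Ctl-C, 1 to 3 for WI+CS6h-C against WI-C, 1 to 2 for WI+CS24h-C against WI-C, 3 to 4 for WI+CS6h-CMJ against Ctl-CMJ, 3 to 5 for WI+CS24h-CMJ against Ctl-CMJ, 1 to 2 for both cold-stored CMJ groups against WI-CMJ and 0 to 1 for WI-CMJ against Ctl-CMJ, and stayed at 0 in the others. The cause of these losses was not tested. IL8 and CCL26 lie near background on some arrays, which limits their fold changes.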

Other observations

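Of the marker lists of other cell types, 0 of 8 adipocyte, 7 fibroblast and mural cell, 3 lymphatic endothelial and 5 proximal tubule and glomerulus identifiers were called in any of the 12 treatment comparisons, nor was the erythrocyte gene HBB. At an unadjusted p under 0.05 (limma), 5 adipocyte identifiers were higher in WI-CMJ than in Ctl-CMJ, and 3 were lower in each cold-stored CMJ group than in WI-CMJ, with medians of -0.46 after 6 h and -0.51 after 24 h. In cortex 3 were higher than Ctl-C after 6 h of storage and 2 after 24 h, with a median of 0.22 at both times, and 0 were lower. Of all 35938 identifiers, 4410 passed this level in WI-CMJ against Ctl-CMJ, and 6065 and 5907 in the cold-stored CMJ groups against WI-CMJ. In cold-stored cortex against Ctl-C, 7708 and 5808 of 35939 did so. Of 5 identifiers of loop and collecting duct genes, AQP3, a water channel of the collecting duct, was called lower in all 4 comparisons of cold-stored tissue with WI, by -0.63 to -0.88 (limma adjusted p 0.0242 to 0.0392).

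The S100 genes of granulocytes and monocytes split the cold-stored numbers further than the ligands did. S100A8 averaged 1.62 and 1.25 at numbers 1 and 2, and 4.09, 4.97 and 5.54 at numbers 3, 4 and 5, over the 4 cold-stored groups. S100A9 averaged 1.84, 1.73, 2.61, 3.53 and 4.32 at numbers 1 to 5. CD8A went the other way, from 4.64 at number 1 to 2.68 at number 5. HBB measured 0.07 to 1.52 at numbers 1 and 2 and 1.72 to 5.83 at numbers 3 to 5.

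Among interferon-stimulated genes, GBP2 (named after its values were seen) fell in 6 of the 8 comparisons of cold-stored tissue with Ctl or WI, by -0.87 to -1.26 (limma adjusted p 4.82e-05 to 0.00293). ISG15 NM_001128469 (named likewise) was called once, -1.12 from Ctl-CMJ in WI+CS6h-CMJ (adjusted p 0.0377).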
